A study of Mus musculus with 36 samples.

Results

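Chromatin accessibility at Bcl6, Prdm1 and Cxcr5 was measured in CD4+ T cells of mice with or without HP1α or HP1γ by ATAC-seq, which reads out where the Tn5 transposase can insert into chromatin. The members were the consensus peaks whose midpoint lay nearest to a protein-coding transcription start site of one of these genes, or that overlapped one of their gene bodies, in the GENCODE annotation of GRCm39. This rule, which used positions and no measured value, found 76 of 71509 peaks. There were 21 peaks at Bcl6, 39 at Prdm1 and 16 at Cxcr5, and all 76 were tested in both mouse lines.

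Bcl6 is the transcriptional repressor that directs CD4+ T cells towards the follicular helper (Tfh) fate, in which they enter B cell follicles and help B cells. Prdm1 encodes Blimp-1, a repressor found in effector and exhausted T cells and in plasma cells. Bcl6 and Blimp-1 repress each other's genes, so that a T cell tends to hold one or the other. Cxcr5, the receptor for the follicular chemokine CXCL13, brings Tfh cells into the follicle, is carried by B cells as well, and is opposed by Blimp-1. HP1α and HP1γ are chromatin proteins that bind histone H3 methylated at lysine 9.

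The 36 libraries formed 12 groups of 3. HP1α KO mice carried a floxed Hp1a gene deleted with CMV-cre, hence in every tissue, and were compared with littermates. HP1γ KO mice carried floxed Hp1g with Cd4-cre, which acts in cells that have expressed Cd4, and their controls had the floxed gene without Cre. In each line, WT and KO cells were profiled as naive CD4+ cells from the spleen, or as Tconv, the donor Vβ6+ cells sorted from the spleen 3 weeks after naive cells had been given to irradiated B6 hosts with B6 and B6D2F1 bone marrow, or as Tconv from hosts that had also received expanded WT Treg (Tconv+Treg). The Treg were WT in every case and were kept out of the sorted cells by a Thy1.1 gate. The labels do not say whether replicates came from separate animals, so the p-values measure the spread between libraries, which may be technical.

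Libraries held between 1.49 M and 96.8 M reads in peaks (M, mega), with a median of 54.8 M. The 6 shallowest libraries were all from HP1α Tconv or Tconv+Treg cells. WT Tconv, a group that enters 3 pairwise comparisons, had 74.4, 19.7 and 6.20 M in replicates 1 to 3. WT Tconv+Treg had 12.7, 1.49 and 3.20 M reads, against 50.7, 7.12 and 5.73 M in those of the KO. The study left out WT replicate 3 and KO replicates 2 and 3 of HP1α Tconv+Treg for low signal, and the same was done here, so that HP1α KO Tconv+Treg rests on 1 library and its WT on 2. Of 8 CD4 T cell markers, 7 had a peak at their start site. The start-site peaks of Cbx5 and Cbx3, which encode HP1α and HP1γ, are shared in part with neighbouring genes and differed by at most 0.134 (log2) between KO and WT. The wide peak at Cd4 was higher by 2.77, 2.55 and 2.60 (log2) in HP1γ KO naive, Tconv and Tconv+Treg cells, the line whose Cre is driven by Cd4 sequence, and by -0.01, 0.08 and 0.36 in HP1α KO cells.

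Levels are given as log2 CPM, reads in peaks scaled to the library total and by TMM within a mouse line with a prior count of 2, and peaks are named by the distance of their midpoint from the first protein-coding start site. A peak was called where the edgeR quasi-likelihood test gave a Benjamini-Hochberg adjusted p under 0.05 over all peaks and the absolute log2 fold change was over 1. In a bulk sample, fewer cells with an open site and a less open site in every cell cannot be told apart.

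All 3 genes lie on the minus strand. Bcl6 (ENSMUSG00000022508.6, chr16:23783802-23807602) had 1 peak in its body, a start-site peak of 10940 bp at chr16:23799731-23810670 that covers the promoter and first intron, and its other 20 peaks lay outside the gene. Prdm1 (ENSMUSG00000038151.15, chr10:44313171-44404497) had 8 peaks in its body and 31 outside, with the start-site peak at chr10:44333001-44336680. Cxcr5 (ENSMUSG00000047880.17, chr9:44423083-44473174) had 11 peaks in its body and 5 outside, and start-site peaks at chr9:44473031-44475140 and, over a further coding start 35.5 kb downstream, at chr9:44434751-44440570.

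The 200 bases before each first coding start are shown to place the promoters, with matches to the 8 searched motifs in capitals. They span chr16:23807603-23807802 for Bcl6, chr10:44334781-44334980 for Prdm1 and chr9:44473175-44473374 for Cxcr5 (GRCm39, minus strand, 5′ to 3′). The capitals mark a match to the STAT and BCL6 motif TTCNNNGAA in Bcl6 and to the AP-1 motif TGANTCA in Prdm1, and the Cxcr5 window held no match.
Bcl6 promoter: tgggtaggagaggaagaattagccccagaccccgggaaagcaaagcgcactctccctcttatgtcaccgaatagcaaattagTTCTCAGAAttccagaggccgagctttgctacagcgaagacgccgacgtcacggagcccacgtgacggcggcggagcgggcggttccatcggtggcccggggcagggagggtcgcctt
Prdm1 promoter: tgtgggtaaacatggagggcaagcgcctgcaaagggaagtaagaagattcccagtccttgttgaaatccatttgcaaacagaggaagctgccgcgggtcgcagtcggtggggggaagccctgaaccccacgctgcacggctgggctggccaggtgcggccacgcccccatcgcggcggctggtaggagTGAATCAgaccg
Cxcr5 promoter: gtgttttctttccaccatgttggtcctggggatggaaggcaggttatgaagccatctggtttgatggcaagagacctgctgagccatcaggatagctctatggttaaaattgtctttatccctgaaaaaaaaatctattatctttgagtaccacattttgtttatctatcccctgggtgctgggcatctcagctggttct

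Central windows of the distal peaks that the results turn on are shown next, also on the minus strand. In HP1γ WT Tconv over naive cells, the Prdm1 peaks 257.3 kb (chr10:44591921-44592220) and 106.7 kb upstream (chr10:44441281-44441580) had the largest rise and the smallest p, in that order. The Bcl6 peak 62.2 kb upstream (chr16:23869641-23869940) had the largest fall in that comparison. The Bcl6 peak 174.7 kb upstream (chr16:23982136-23982435) and the intronic Cxcr5 peak 12.9 kb downstream (chr9:44460126-44460425) were higher in HP1γ KO cells. In the window 106.7 kb upstream of Prdm1 the capitals mark 1 TCF/LEF (TTCAAAG), 2 RUNX (TGTGGTT) and 1 NFAT (GGAAAA) match on either strand, and the other windows shown here held no match.
Prdm1 peak 257.3 kb upstream: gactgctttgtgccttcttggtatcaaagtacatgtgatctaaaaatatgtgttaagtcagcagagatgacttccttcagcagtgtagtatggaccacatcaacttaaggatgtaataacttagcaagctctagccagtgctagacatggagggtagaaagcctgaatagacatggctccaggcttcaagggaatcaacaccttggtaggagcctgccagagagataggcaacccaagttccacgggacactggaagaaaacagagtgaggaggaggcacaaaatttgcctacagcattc
Prdm1 peak 106.7 kb upstream: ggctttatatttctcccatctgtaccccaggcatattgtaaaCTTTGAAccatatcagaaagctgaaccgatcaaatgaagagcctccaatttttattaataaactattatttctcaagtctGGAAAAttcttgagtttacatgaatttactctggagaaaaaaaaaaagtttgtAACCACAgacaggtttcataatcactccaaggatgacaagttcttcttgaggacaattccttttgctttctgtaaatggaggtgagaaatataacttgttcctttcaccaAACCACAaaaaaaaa
Bcl6 peak 62.2 kb upstream: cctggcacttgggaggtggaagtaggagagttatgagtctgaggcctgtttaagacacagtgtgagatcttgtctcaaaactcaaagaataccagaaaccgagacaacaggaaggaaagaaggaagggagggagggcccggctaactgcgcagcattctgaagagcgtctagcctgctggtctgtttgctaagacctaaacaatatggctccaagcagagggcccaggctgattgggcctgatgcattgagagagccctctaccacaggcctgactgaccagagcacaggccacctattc
Bcl6 peak 174.7 kb upstream: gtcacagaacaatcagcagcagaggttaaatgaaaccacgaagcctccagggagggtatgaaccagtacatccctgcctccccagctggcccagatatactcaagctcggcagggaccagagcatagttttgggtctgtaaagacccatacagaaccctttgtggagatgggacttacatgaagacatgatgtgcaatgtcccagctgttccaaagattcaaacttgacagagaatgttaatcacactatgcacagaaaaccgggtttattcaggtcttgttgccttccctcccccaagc
Cxcr5 peak 12.9 kb downstream: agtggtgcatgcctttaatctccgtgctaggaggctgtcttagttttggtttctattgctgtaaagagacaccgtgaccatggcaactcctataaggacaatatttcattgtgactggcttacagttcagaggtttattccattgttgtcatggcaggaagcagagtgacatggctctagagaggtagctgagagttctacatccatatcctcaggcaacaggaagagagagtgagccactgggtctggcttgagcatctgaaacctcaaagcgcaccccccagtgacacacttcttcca

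The first comparison asked how these loci change between naive cells and Tconv. Distal Prdm1 peaks opened, many Bcl6 upstream peaks closed, and the start-site peaks of both genes stayed within a narrow range. In HP1γ WT cells, 27 of 39 Prdm1 peaks rose and none fell, with a median log2 fold change of 2.92, while 10 of 21 Bcl6 peaks fell and 1 rose, with a median of -0.97. Of 16 Cxcr5 peaks, 2 rose and 3 fell, with a median of 0.10. Over all peaks in this comparison, 24.5% rose and 22% fell, and the median was 0.08.

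The other 3 Tconv and naive comparisons gave similar counts. In HP1γ KO cells 27 Prdm1 peaks rose and none fell, 2 Bcl6 peaks rose and 9 fell, and 5 Cxcr5 peaks rose and 2 fell, where 22.4% of all peaks rose and 20.6% fell. In HP1α WT cells 29 Prdm1 peaks rose, 1 Bcl6 peak rose and 8 fell, and 5 Cxcr5 peaks rose and 1 fell, against 24.9% and 17.5% of all peaks. In HP1α KO cells 30 Prdm1 peaks rose, 7 Bcl6 peaks fell, and 2 Cxcr5 peaks rose and 2 fell, against 23.5% and 19%. Across the 4 comparisons, 26 Prdm1 peaks were called higher in every one, 6 Bcl6 peaks were called lower in every one, and Cxcr5 had 1 peak of each kind, where 17.7% of all peaks were called higher and 14.6% lower in every one.

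**Figure D1:**
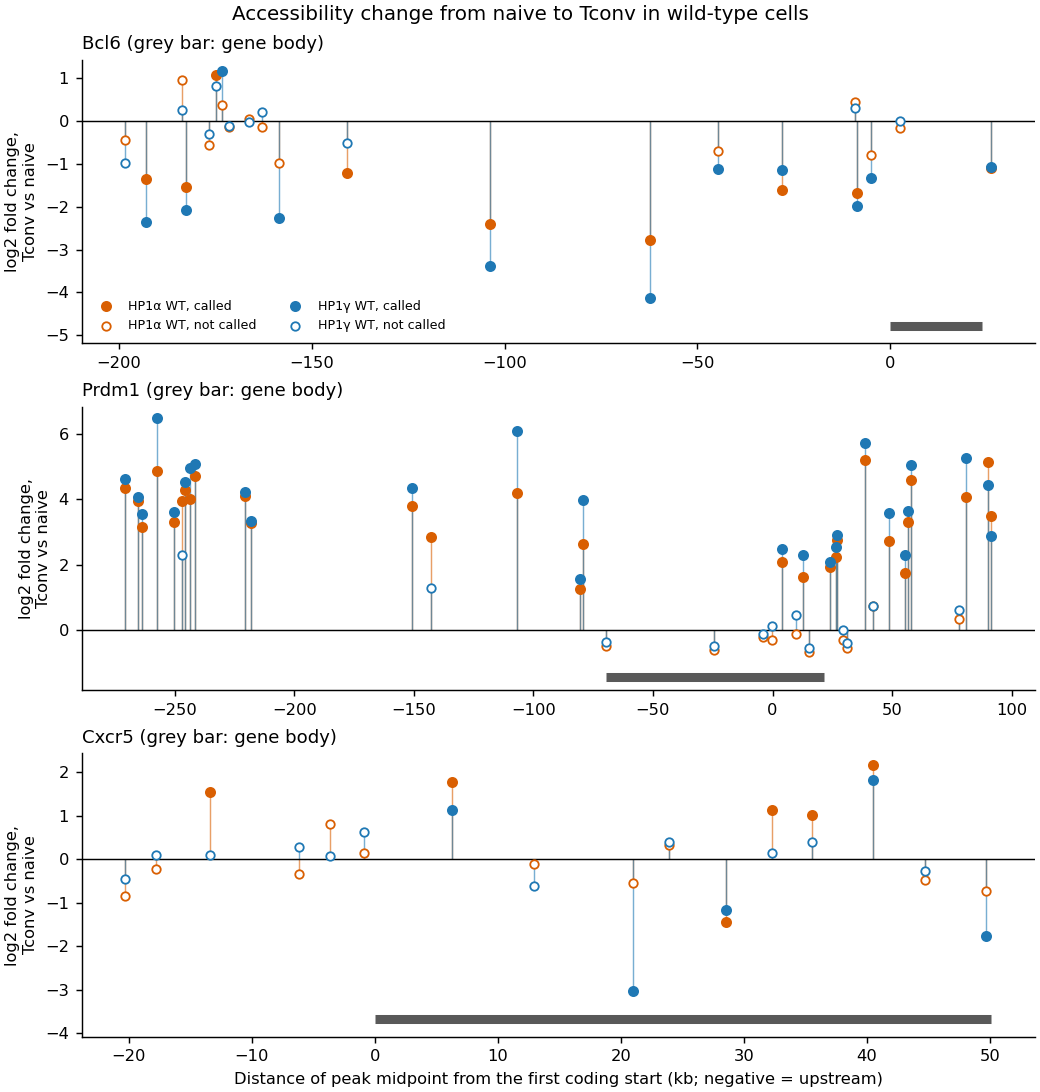
Each panel plots, for 1 gene, the log2 fold change of Tconv over naive WT cells (y axis) against the distance of each peak from the first coding start in kb (x axis), in orange for the HP1α line and blue for the HP1γ line, with filled points for called peaks, stems to 0 and a grey bar for the gene body. In HP1γ WT cells the 27 called Prdm1 peaks all lie above 0, and 10 of the 11 called Bcl6 peaks lie below 0.

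The Prdm1 rises were counted by position. Of the 12 peaks over 150 kb upstream of Prdm1, 11 rose in HP1γ WT cells with a median of 4.29, and all 12 rose in HP1α WT cells. Of the 7 peaks between 50 and 150 kb downstream, 6 rose in either line, and of the 7 peaks in the gene body other than the start site, 2 rose. The 27 Prdm1 peaks that rose had a median level of -2.80 log2 CPM in naive cells and the other 12 a median of 4.14, so the risers were mostly at the lower end of detection before activation.

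At the Prdm1 peak 257.3 kb upstream, HP1γ WT naive libraries held 13, 4 and 8 reads (-2.18, -3.55 and -3.01 log2 CPM) and Tconv libraries 708, 663 and 302 reads (3.40, 3.51 and 2.56). The groups stood far apart, where those of 75.7% of all peaks did not overlap. The log2 fold change was 6.48 (95% interval 4.79 to 8.16, adjusted p = 5.91e-07). The Prdm1 peak 106.7 kb upstream went from -3.22, -3.19 and -2.57 to 2.71, 2.77 and 2.71, a log2 fold change of 6.09 (95% interval 5.44 to 6.73, adjusted p = 3.18e-12). In HP1γ KO cells the smallest p was at the Prdm1 peak 38.6 kb downstream, with -0.45, -0.73 and -1.80 in naive and 3.63, 3.48 and 3.86 in Tconv libraries, a log2 fold change of 4.91 (95% interval 4.23 to 5.58, adjusted p = 4.35e-10). In both HP1α genotypes it was at the Prdm1 peak 58.1 kb downstream, which rose in WT (log2 fold change 4.58, adjusted p = 1.99e-10) and KO cells (log2 fold change 4.50, adjusted p = 5.62e-11).

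The Bcl6 peak 103.8 kb upstream had the smallest p among Bcl6 peaks in all 4 comparisons. Its levels were 4.56, 4.62 and 4.54 in HP1γ WT naive and 1.30, 0.93 and 1.40 in HP1γ WT Tconv libraries. The groups stood apart (log2 fold change -3.38, adjusted p = 8.42e-12), and in HP1γ KO, HP1α WT and HP1α KO cells the log2 fold changes were -2.89, -2.40 and -2.83. In HP1γ WT cells the Bcl6 peak 62.2 kb upstream fell furthest, from 2.66, 2.30 and 2.69 to -1.59, -2.05 and -0.83. Its log2 fold change was -4.13 (95% interval -4.80 to -3.46, adjusted p = 1.53e-09). The only Bcl6 peak that rose in HP1γ WT cells lay 173.2 kb upstream, from -2.48, -3.19 and -2.09 to -1.95, -1.34 and -1.23, with a log2 fold change of 1.16 (95% interval 0.17 to 2.15, adjusted p = 0.0360).

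Cxcr5 peaks moved in both directions. The intronic peak 28.6 kb downstream, a well-covered one, had levels of 6.10, 5.97 and 6.09 in HP1γ WT naive and 5.08, 4.80 and 4.73 in Tconv libraries, -1.17 (95% interval -1.48 to -0.86, adjusted p = 1.08e-06), and it had the smallest p among Cxcr5 peaks in HP1α WT (-1.44) and HP1α KO cells (-1.50) too. The largest fall in HP1γ WT cells was at the intronic peak 21.0 kb downstream, from -0.72, -0.60 and -0.14 to -3.92, -3.26 and -2.24 (log2 fold change -3.02, adjusted p = 5.79e-06), where Tconv libraries held 2, 4 and 9 reads. The largest rise was at the peak 40.5 kb downstream, from -2.48, -2.55 and -2.57 to -1.65, -1.22 and -0.13 (log2 fold change 1.83, adjusted p = 0.00230). In HP1γ KO cells the smallest p was a rise at the Cxcr5 start-site peak 35.5 kb downstream, from 4.19, 4.11 and 4.14 to 5.18, 5.83 and 5.74 (log2 fold change 1.46, adjusted p = 2.09e-06).

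Markers of other cell types moved with activation as well. Cd8b1, the only CD8 marker with a start-site peak, was at 19.0 to 23.5 CPM per kb in naive and 1.76 to 6.56 in the other libraries. For the other lists the markers of 1 cell type did not move together. In HP1γ WT cells the sum of the B cell genes Pax5 and Ebf1 was 9.06 to 10.1 in naive and 9.84 to 16.2 in Tconv libraries, that of the 3 myeloid markers with a peak 27.4 to 27.8 and 23.4 to 28.6, and that of the 3 Treg markers 49.0 to 52.7 and 50.6 to 59.7, all of which overlap. Within these lists Pax5 (2.38 to 3.03 in naive and 4.04 to 5.43 in Tconv), the myeloid gene Cd14 (6.56 to 6.97 and 7.49 to 8.36) and the Treg gene Il2ra (15.8 to 17.5 and 23.2 to 28.7) were higher in every Tconv library. The myeloid gene Itgam (9.28 to 9.96 and 4.75 to 8.36) the Treg gene Ikzf2 (10.5 to 12.6 and 7.06 to 9.49) and Sdc1, the only plasma cell marker with a peak (4 to 4.49 and 2.49 to 3.96), were lower in every one, and Ebf1 overlapped (6.26 to 7.03 and 5.80 to 10.8). The part of these markers in the member results was not tested.

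The start-site peaks were compared across all 12 groups per kb of peak and under a single scaling of the 33 kept libraries. Bcl6 means spanned 0.77 (log2), from 4.39 ± 0.12 log2 CPM per kb (SD, n = 3) in HP1α KO naive cells to 3.62 ± 0.05 (n = 2) in HP1α WT Tconv+Treg cells, and only 3 of the 11 steps between neighbouring groups in that order had ranges that did not overlap. Prdm1 means spanned 0.81, from 4.37 ± 0.06 in HP1γ WT Tconv to 3.56 ± 0.34 (n = 2) in HP1α WT Tconv+Treg cells, and no neighbouring pair was separate. Between HP1γ WT Tconv and naive cells, neither the Prdm1 start-site peak (log2 fold change 0.13, adjusted p = 0.405) nor that of Bcl6 (log2 fold change -0.00, adjusted p = 0.960) was called.

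Cxcr5 start sites varied more. The peak 0.9 kb upstream spanned 2.21, from 3.80 ± 0.30 (n = 3) in HP1γ KO Tconv+Treg to 1.59 ± 0.16 in HP1γ KO naive cells, and the peak 35.5 kb downstream spanned 2.50, from 4.11 ± 0.28 in HP1γ KO Tconv+Treg to 1.61 ± 0.12 in HP1α WT naive cells. For each, 4 of 11 neighbouring steps did not overlap, the step below HP1γ KO Tconv+Treg among them. Between HP1γ WT Tconv and naive cells the log2 fold changes were 0.63 at the upstream peak (adjusted p = 0.0272) and 0.41 at the downstream one (adjusted p = 0.0498), under the fold needed for a call.

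Start-site peaks of other genes were ranked by Pearson correlation with these patterns over the 12 group means, as a description over groups that share libraries and depth. The most alike were Nxf1 (0.987), Ifi47 (0.984) and H2-Eb1 (0.983) for Bcl6, and Psd4 (0.988), Trim27 (0.984) and Pwp2 (0.982) for Prdm1. For Cxcr5 they were Gstt2 (0.950), Prss41 (0.932) and Tmem106a (0.932) at the upstream start and Spock2 (0.974), Bcor (0.972) and Rhpn1 (0.969) at the downstream one.

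**Figure D2:**
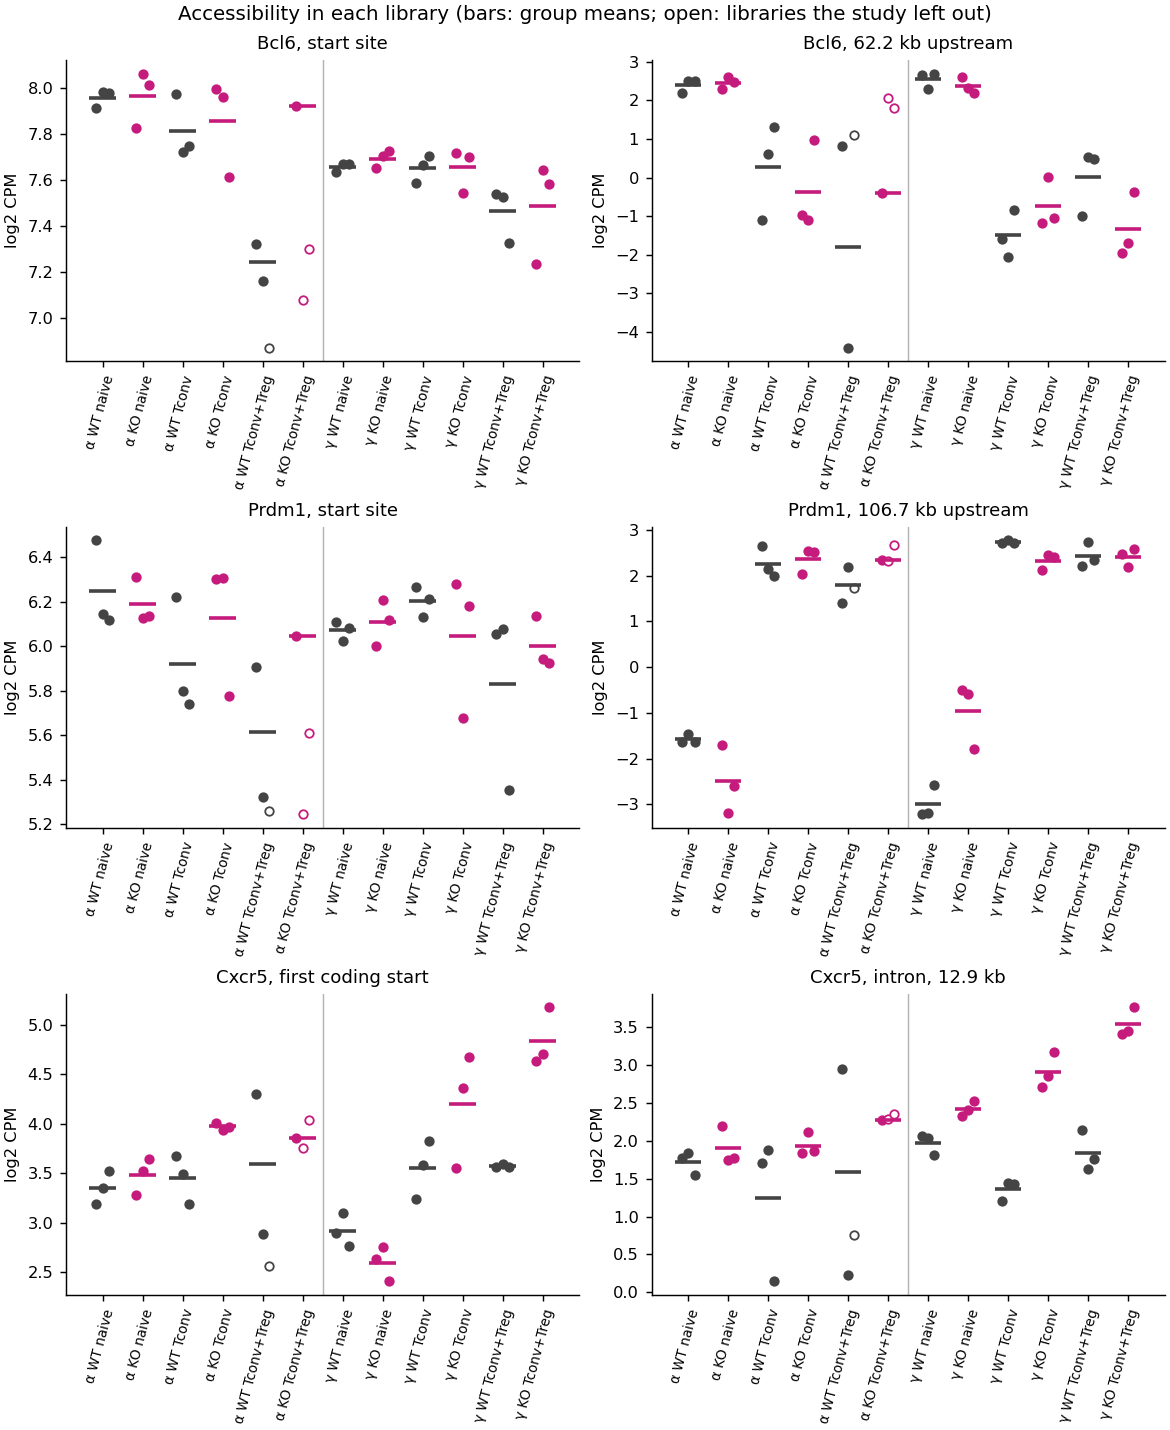
Each panel plots the level of 1 member peak in every library (y axis, log2 CPM) by group (x axis), with open points for the 3 libraries left out of the tests and a bar for the mean of the kept ones. The y axes differ between panels. The distal Prdm1 peak rises and the distal Bcl6 peak falls from naive cells to Tconv, and the Cxcr5 intronic peak is highest in HP1γ KO Tconv+Treg cells.

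The next comparison asked what loss of HP1γ did. No member was called in naive cells, 3 were in Tconv, and 17 were in Tconv+Treg, most of these more open in KO cells. In naive cells 0 members were called by edgeR (0.14% of all peaks were), 4 had an unadjusted p under 0.05 (8.98% of all peaks), DESeq2 called 6 (3.27%) and a fit of the compared groups alone called 2. The median log2 fold changes there were 0.66 over the Prdm1, 0.01 over the Bcl6 and -0.25 over the Cxcr5 peaks, and 0.03 over all peaks. The smallest p among Bcl6 peaks was 182.5 kb upstream (log2 fold change -0.56, adjusted p = 0.286), among Prdm1 peaks 106.7 kb upstream (log2 fold change 2.17, adjusted p = 0.253) and among Cxcr5 peaks 12.9 kb downstream (log2 fold change 0.49, adjusted p = 0.387).

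In Tconv 1 member rose and 2 fell in HP1γ KO cells, against 1.69% and 1.66% of all peaks. The intronic Cxcr5 peak 12.9 kb downstream rose from 1.21, 1.44 and 1.43 in WT to 2.72, 2.86 and 3.17 log2 CPM in KO libraries, with a log2 fold change of 1.61 (95% interval 1.21 to 2.01, adjusted p = 8.38e-05). All KO libraries lay above all WT libraries, where the groups of 18.5% of all peaks did not overlap. The call held under each of 15 alternatives. The Prdm1 peak 150.6 kb upstream went from 1.38, 0.93 and -0.26 to -0.39, -1.77 and -1.26 (log2 fold change -1.95, adjusted p = 0.00573), a call lost without KO replicate 3 and with the compared groups alone in the fit (adjusted p = 0.101 at most over the alternatives). The Prdm1 peak 218.0 kb upstream went from 2.83, 2.74 and 1.92 to 2.04, 1.23 and 1.08 (log2 fold change -1.08, adjusted p = 0.0226), where the groups overlapped and 7 of 15 alternatives lost the call. No Bcl6 peak was called, and the smallest p was 174.7 kb upstream (log2 fold change 0.99, adjusted p = 0.101). Without KO replicate 1 the members called were 8 in place of 3, and without KO replicate 3 they were 1. Markers of other cell types moved here too, and those without overlap between KO and WT Tconv included the Treg genes Ikzf2, at 10.6 to 12.3 and 7.06 to 9.49 CPM per kb, Foxp3, at 18.1 to 19.2 and 20.1 to 23.4, and Il2ra, at 18.4 to 20.4 and 23.2 to 28.7, the myeloid gene Spi1, at 8.91 to 9.59 and 10.8 to 12.9, the plasma cell gene Sdc1, at 3.98 to 5.60 and 2.49 to 3.96, and Cd8b1, at 3.16 to 3.64 and 1.76 to 2.86. The Treg sum, at 48.6 to 50.9 and 50.6 to 59.7, and the myeloid sum, at 18.8 to 24.7 and 23.4 to 28.6, overlapped. The Pax5 and Ebf1 sum, at 12.2 to 16.7 and 9.84 to 16.2, overlapped, and the part of these markers was not tested.

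In Tconv+Treg 14 members rose and 3 fell in HP1γ KO cells, against 6.48% and 5.38% of all peaks. At Cxcr5 4 of 16 peaks rose and none fell, at Bcl6 3 of 21 rose and 1 fell, and at Prdm1 7 of 39 rose and 2 fell. The medians were 0.56, 0.01 and 0.10 (log2), and that of all peaks was -0.02. Without KO replicate 1 the number called was 9 in place of 17.

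All 4 Cxcr5 calls held under each of 15 alternatives. The peak 12.9 kb downstream went from 2.14, 1.62 and 1.76 to 3.42, 3.46 and 3.77, with a log2 fold change of 1.65 (95% interval 1.27 to 2.02, adjusted p = 2.62e-05). The start-site peak 35.5 kb downstream went from 5.60, 4.92 and 5.17 to 6.82, 6.34 and 6.69 (log2 fold change 1.35, adjusted p = 6.05e-05), and the one 0.9 kb upstream from 3.57, 3.60 and 3.56 to 4.63, 4.71 and 5.18 (log2 fold change 1.26, adjusted p = 0.00127). The peak 6.2 kb downstream, over a noncoding start, went from 1.86, 1.62 and 1.97 to 3.14, 2.71 and 3.50 (log2 fold change 1.32, adjusted p = 0.00149). In each of the 4, every KO library lay above every WT library. The groups did not overlap at 31.4% of all peaks in this comparison.

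The Bcl6 calls were far upstream, and the start-site peak did not pass the test (log2 fold change 0.02, adjusted p = 0.859). The peak 198.4 kb upstream went from 2.90, 2.54 and 2.79 to 4.37, 3.44 and 4.13 (log2 fold change 1.28, adjusted p = 0.000604). The peak 174.7 kb upstream went from 1.97, 1.75 and 2.54 to 3.43, 3.32 and 4.10 (log2 fold change 1.58, adjusted p = 0.000656). Both calls held under all 15 alternatives, and that at the neighbouring peak 173.2 kb upstream (log2 fold change 1.51, adjusted p = 0.00342) under 14. The Bcl6 fall, chosen for naming after its values were seen, lay 140.9 kb upstream, from -1.25, -0.58 and -0.94 in WT to -2.14, -2.40 and -2.24 in KO libraries (log2 fold change -1.50, adjusted p = 0.0290). It was the largest fall among the Bcl6 peaks in this comparison, and the groups did not overlap. The peak was sparse, with 20, 27 and 11 reads in WT and 12, 9 and 7 in KO libraries. Its call held under 10 of 15 alternatives. The call was lost without any 1 of the KO replicates, without WT replicate 2, and with the compared groups alone in the fit.

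At Prdm1 the called peaks lay on both sides and moved in both directions, and the start-site peak did not pass (log2 fold change 0.10, adjusted p = 0.635). A group of 5 peaks between 241.5 and 250.2 kb upstream rose, and the one 241.5 kb upstream went from 2.39, 1.65 and 1.14 to 3.81, 2.66 and 3.22 (log2 fold change 1.38, adjusted p = 0.00295). The one 245.8 kb upstream rose as well (log2 fold change 1.46, adjusted p = 0.00545). Neither of these calls held without KO replicate 1, whose level was the highest at each. That at 241.5 kb was also lost with the compared groups alone in the fit. The calls 250.2, 247.0 and 243.5 kb upstream held under 9, 7 and 9 of 15 alternatives, and each was lost without KO replicate 1. The peak 58.1 kb downstream rose too (log2 fold change 1.10, adjusted p = 0.00754), a call lost under 3 of 15 alternatives, the one without KO replicate 1 among them. The last rise, 91.5 kb downstream (log2 fold change 1.75, adjusted p = 0.0168), held under 10 of 15 and was also lost without KO replicate 1. So none of the 7 Prdm1 rises held without that library.

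The Prdm1 falls lay nearer to the gene. The intronic peak 3.8 kb upstream of the first coding start fell from 1.11, 1.45 and 1.11 to -0.53, 0.24 and -0.13 (log2 fold change -1.39, adjusted p = 0.00662), and the peak 31.1 kb downstream from 1.75, 1.82 and 2.02 to 0.36, 0.39 and 1.29 (log2 fold change -1.18, adjusted p = 0.00460). No KO library reached a WT library at either, where the groups of 31.4% of all peaks did not overlap. Both calls held under all 15 alternatives. The smallest p among Prdm1 peaks was 29.4 kb downstream, where the change (log2 fold change -0.94, adjusted p = 0.000664) was under the fold needed for a call.

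**Figure D3:**
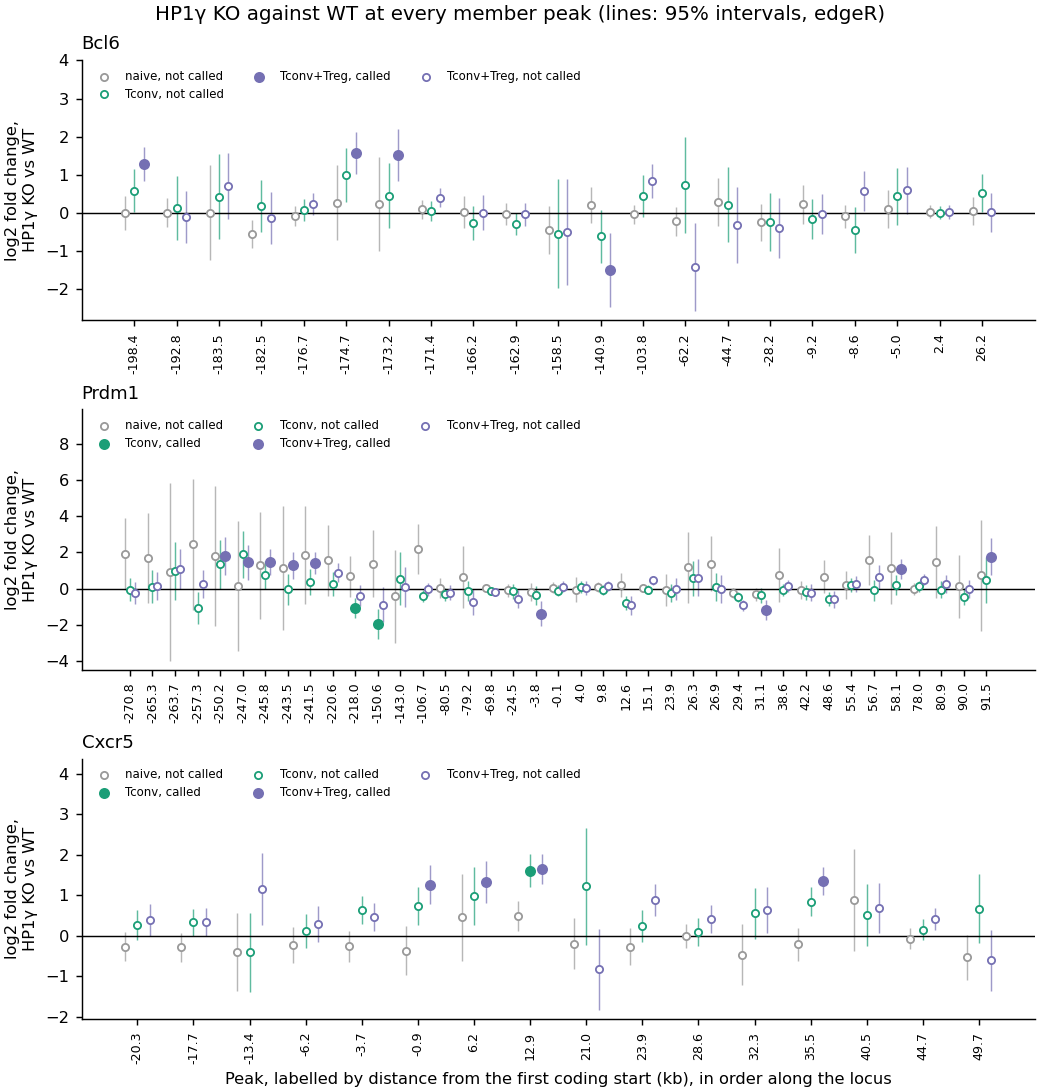
Each panel plots the HP1γ KO over WT log2 fold change (y axis) of the member peaks of 1 gene, in order along the locus (x axis), in naive cells, Tconv and Tconv+Treg, with 95% intervals and filled points for calls. Calls are absent in naive cells, number 3 in Tconv and 17 in Tconv+Treg, and the 4 Cxcr5 calls with Treg all lie above 0.

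Markers of other cell types moved with this comparison, among them those of B cells, which also use Bcl6 and Cxcr5. The B cell genes Ms4a1, Cd79a and Cd79b had no consensus peak at the start site, and the summed level of Pax5 and Ebf1 was 17.0 to 21.6 CPM per kb in HP1γ KO and 10.9 to 13.7 in HP1γ WT Tconv+Treg libraries. Pax5 was at 7.29 to 9.76 in KO and 3.59 to 7.52 in WT libraries, which overlap, and Ebf1 at 9.67 to 11.8 and 5.95 to 7.33, which do not. The Treg gene Ikzf2 was at 15.5 to 17.6 in KO and 6.94 to 12.4 in WT libraries and the myeloid gene Itgam at 1.77 to 2.48 and 4.02 to 6.04, neither of which overlap, while the other Treg markers, Foxp3 and Il2ra, and the other myeloid ones with a peak, Cd14 and Spi1, did. The sum of the 3 Treg markers was 44.2 to 49.4 and 38.5 to 52.5, and that of the 3 myeloid markers with a peak was 16 to 19.3 and 19.6 to 24.2. The cells were sorted as Vβ6+ T cells, and the part of these markers in the member results was not tested. Reads in peaks were 39.6 to 64.2 M in KO and 19.4 to 51.7 M in WT Tconv+Treg libraries.

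Loss of HP1α was compared in the same way, though with Treg on fewer libraries. Peaks were simulated with the real library depths and 1 common spread per line. A log2 change of 2 put into them was called for 16.5% in the HP1α and 95% in the HP1γ Tconv+Treg comparison. Library number and depth both differ between these comparisons, so their parts cannot be told apart. The spread of single peaks was not simulated. In naive cells 0 members were called (0.00559% of all peaks were), 2 had an unadjusted p under 0.05 (1.17% of all peaks) and DESeq2 called 0 (0.00979%). The smallest p was at the Bcl6 peak 173.2 kb upstream (log2 fold change 0.62), the Prdm1 peak 241.5 kb upstream (-3.94, where naive KO libraries held at most 1 reads) and the Cxcr5 start-site peak 35.5 kb downstream (0.30), each with an adjusted p of 1. In Tconv 0 members were called (0.021% of all peaks), 3 had an unadjusted p under 0.05 (4.83%) and DESeq2 called 0 (0.0168%). The smallest p was at the Prdm1 peak 257.3 kb upstream, with 2.92, 2.46 and 2.68 in WT and 1.80, 1.87 and 2.22 in KO libraries (log2 fold change -0.92, adjusted p = 0.295), at the Bcl6 peak 140.9 kb upstream (1.05) and at the Cxcr5 peak 40.5 kb downstream (-1.05).

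In Tconv+Treg 4 members fell in HP1α KO cells and none rose, against 1.41% and 0.218% of all peaks. The KO group is 1 library, which the test assumes to vary like the libraries of the other groups. The calls were the Bcl6 peaks 198.4 kb (log2 fold change -1.49, adjusted p = 0.0260), 174.7 kb (log2 fold change -2.23, adjusted p = 0.0176) and 173.2 kb upstream (log2 fold change -2.59, adjusted p = 0.0211) and the Prdm1 peak 265.3 kb upstream (log2 fold change -2.16, adjusted p = 0.0239). At the Bcl6 peak 198.4 kb upstream the WT libraries used had 4.75 and 4.57 and the KO library 3.27 log2 CPM. The libraries left out had 4.02 (WT) and 3.83 and 3.69 (KO). At the peak 174.7 kb upstream the libraries used had 4.31 and 3.88 (WT) and 2.06 (KO). There the libraries left out went the other way, at 2.83 (WT) and 3.08 and 3.48 (KO). At the peak 173.2 kb upstream WT replicate 2 held 2 reads. The libraries left out had -4.41 (WT, 0 reads) and 1.14 and 0.19 (KO), again the other way. At the Prdm1 peak 265.3 kb upstream WT replicate 1 had 2.30 (60 reads), WT replicate 2 had 0.23 (2 reads) and the KO library 0.06. The Prdm1 call held under 5 of 12 alternatives, over which its log2 fold change ranged from -2.47 to -0.18. With all 18 HP1α libraries 0 members were called, and the log2 fold changes of the 3 Bcl6 peaks were -1.11, -1.45 and -1.52. Without WT replicate 1, which leaves a single library in each group, 0 were called as well. Among Cxcr5 peaks the smallest p was at the start-site peak 35.5 kb downstream (log2 fold change -0.80, adjusted p = 0.0563). The summed Pax5 and Ebf1 level was 20.2 to 20.3 CPM per kb in the 2 WT libraries and 11.5 in the KO library. Of these genes only Pax5 differed, at 11.2 to 15 against 4.63, while Ebf1 was at 5.23 to 8.93 around 6.85. The sum of the 7 CD4 T cell markers with a peak was lower in WT, at 60.8 to 83.7 against 117, and so was that of the 3 myeloid markers with a peak, at 12.6 to 13.5 against 21.7, and that of the 3 Treg markers, at 25.3 to 39.4 against 44.6 (Il2ra 4.59 to 6.52 against 16.6, Foxp3 10.3 to 13.1 against 14.8, and Ikzf2 10.4 to 19.8 around 13.1). The plasma cell gene Sdc1 was higher in WT, at 6.48 to 8.94 against 4.43. The part of these markers was not tested.

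**Figure D4:**
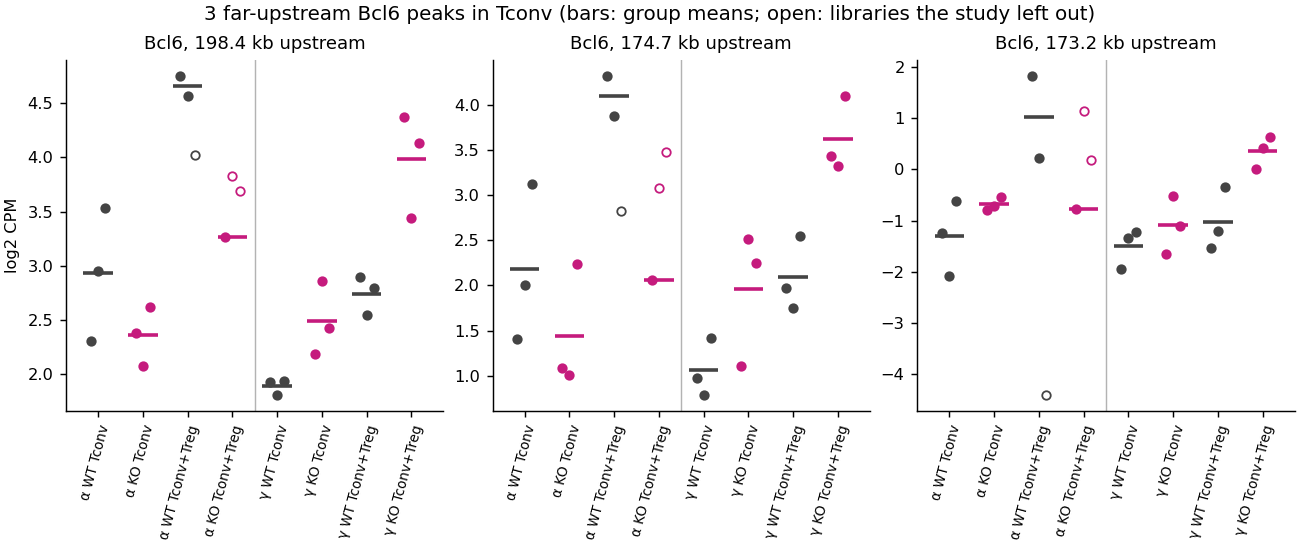
Each panel plots the log2 CPM (y axis) of 1 of the Bcl6 peaks 198.4, 174.7 and 173.2 kb upstream in the Tconv and Tconv+Treg libraries of both lines (x axis), with open points for the libraries left out of the tests. In the HP1γ line the KO Tconv+Treg libraries lie above the WT ones, and in the HP1α line the 2 WT libraries used lie above the KO library used.

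The last comparison asked how Treg in the host changed these loci in Tconv. In HP1γ KO cells 16 members rose and 2 fell, against 6.1% and 2.06% of all peaks, and in HP1γ WT cells 0 were called, against 0.137%. In WT cells 17 members had an unadjusted p under 0.05 (22.4%, and 20.3% of all peaks), DESeq2 called 4 (3.26% of all peaks), and a fit with the replicate number as a block called 1. The rises in HP1γ KO cells were 5 at Bcl6, 7 at Prdm1 and 4 at Cxcr5, and both falls were at Prdm1. Leaving out KO Tconv+Treg replicate 1 or KO Tconv replicate 1 left 7 and 9 calls. From HP1γ KO Tconv to Tconv+Treg, the summed Pax5 and Ebf1 level went from 12.2 to 16.7 up to 17.0 to 21.6 CPM per kb. Ikzf2 went from 10.6 to 12.3 up to 15.5 to 17.6, and Itgam from 2.71 to 6.40 down to 1.77 to 2.48. None of these 3 overlap. Of the B cell genes Pax5 was separate (4.52 to 5.62 and 7.29 to 9.76) and Ebf1 overlapped (7.66 to 11.5 and 9.67 to 11.8). Of the other markers, Il2ra went from 18.4 to 20.4 down to 9.35 to 15.2 and Cd14 from 7.13 to 8.70 down to 5.90 to 6.93, again without overlap, and Foxp3 overlapped (18.1 to 19.2 and 17.2 to 18.6). The sums of the Treg (48.6 to 50.9 and 44.2 to 49.4), myeloid (18.8 to 24.7 and 16 to 19.3) and CD4 T cell markers (187 to 212 and 175 to 194) overlapped. The part of these markers was not tested.

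The Bcl6 peak 198.4 kb upstream had the smallest p among Bcl6 peaks in all 4 of these comparisons. In HP1γ KO cells it went from 2.19, 2.86 and 2.43 in Tconv to 4.37, 3.44 and 4.13 in Tconv+Treg libraries (log2 fold change 1.56, adjusted p = 0.000171), and in HP1γ WT cells from 1.93, 1.81 and 1.94 to 2.90, 2.54 and 2.79 (log2 fold change 0.87, adjusted p = 0.124). In HP1α WT and KO cells the log2 fold changes were 2.07 (adjusted p = 0.000528) and 0.98 (adjusted p = 0.138). Every Tconv+Treg library used lay above every Tconv library in all 4. The groups of 21.9%, 22.2%, 35.1% and 38.5% of all peaks did not overlap in HP1γ KO, HP1γ WT, HP1α WT and HP1α KO cells. With Treg the HP1α WT group used is 2 libraries and the HP1α KO group is 1.

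At Prdm1 the smallest p in HP1γ KO cells was at the peak 241.5 kb upstream (log2 fold change 1.37, adjusted p = 0.00243), and in HP1γ WT cells at the intronic peak 12.6 kb downstream (log2 fold change -0.58, adjusted p = 0.143). At Cxcr5 they were at the peak 6.2 kb downstream in HP1γ KO cells (log2 fold change 1.61, adjusted p = 0.000367) and 21.0 kb downstream in HP1γ WT cells (log2 fold change 2.36, adjusted p = 0.0823). This comparison and that of HP1γ KO over WT Tconv+Treg cells share the HP1γ KO Tconv+Treg libraries.

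In HP1α WT cells 10 members rose with Treg and none fell, against 4.92% and 1.84% of all peaks, of which 5 were at Bcl6, 4 at Prdm1 and 1 at Cxcr5. The smallest p after the Bcl6 peak above was at the Cxcr5 start-site peak 35.5 kb downstream (log2 fold change 1.14, adjusted p = 0.000713) and the Prdm1 peak 265.3 kb upstream (log2 fold change 2.35, adjusted p = 0.00256). Without WT Tconv+Treg replicate 1, 0 members were called, and without WT Tconv replicate 1, 5 were. From HP1α WT Tconv to Tconv+Treg, the summed Pax5 and Ebf1 level went from 9.42 to 10.1 up to 20.2 to 20.3 CPM per kb, the CD4 T cell sum from 91.9 to 126 down to 60.8 to 83.7 and the myeloid sum from 19.7 to 22.8 down to 12.6 to 13.5, none of which overlap. The Treg sum overlapped (36.3 to 50.9 and 25.3 to 39.4), while of its genes Il2ra went from 15.6 to 22.8 down to 4.59 to 6.52 and Foxp3 from 13.2 to 17.2 down to 10.3 to 13.1 without overlap. The part of these markers was not tested. In HP1α KO cells 0 were called (0.55% of all peaks), 12 had an unadjusted p under 0.05 (8.54% of all peaks) and DESeq2 called 0 (0.141%). A fit with the replicate number as a block called 2 there, as did all 18 HP1α libraries (1 at Bcl6 and 1 at Prdm1, both higher), and offsets on GC content or a depth covariate called 1 each. The smallest p there beside Bcl6 was at the Prdm1 peak 12.6 kb downstream (log2 fold change -1.09, adjusted p = 0.0577) and the Cxcr5 peak 35.5 kb downstream (log2 fold change 0.40, adjusted p = 0.464).

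Whether the genotype difference itself changed with activation or Treg was tested by interaction, and no member was called in any of the 4 tests, so the larger number of HP1γ calls with Treg is not shown to differ from that without. For the HP1γ genotype by Treg interaction 0.0014% of all peaks were called, 15 members had an unadjusted p under 0.05 (12.8% of all peaks) and DESeq2 called 0 (1.12%). The smallest p was at the Prdm1 peak 15.1 kb downstream (log2 fold change 0.50, adjusted p = 0.313), the Bcl6 peak 8.6 kb upstream (log2 fold change 1.01, adjusted p = 0.334) and the Cxcr5 peak 13.4 kb upstream (log2 fold change 1.57, adjusted p = 0.346). For the HP1γ genotype by activation interaction 0.014% were called, 14 members had an unadjusted p under 0.05 (9.51% of all peaks) and DESeq2 called 6 (1.93%). The smallest p was at the Cxcr5 peak 12.9 kb downstream (log2 fold change 1.12, adjusted p = 0.217), the Prdm1 peak 106.7 kb upstream (log2 fold change -2.57, adjusted p = 0.256) and the Bcl6 peak 140.9 kb upstream (log2 fold change -0.83, adjusted p = 0.537).

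In the HP1α line, 0.0461% of all peaks were called for the interaction with Treg, and among members 8 had an unadjusted p under 0.05 (10.3% of all peaks) and DESeq2 called 0 (0.295%). The smallest p was at the Bcl6 peak 173.2 kb upstream (log2 fold change -3.21, adjusted p = 0.105), the Prdm1 peak 265.3 kb upstream (log2 fold change -1.85, adjusted p = 0.285) and the Cxcr5 start-site peak 35.5 kb downstream (log2 fold change -0.74, adjusted p = 0.299). For the interaction with activation 0% of all peaks were called, 1 member had an unadjusted p under 0.05 (1.79% of all peaks) and DESeq2 called 0 (0.0014%). The smallest p was at the Prdm1 peak 241.5 kb upstream (3.69), the Bcl6 peak 140.9 kb upstream (0.97) and the Cxcr5 start-site peak 35.5 kb downstream (-0.36), with adjusted p of 1 by edgeR.

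Other genes of the 2 programmes were counted by the same rule. The Tfh-side list (21 genes, among them Il21, Icos and Pou2af1) held 464 peaks and the list of Blimp-1-side or Tfh-limiting genes (14 genes, among them Il2ra, Id2 and Klf2) held 312. In HP1γ KO over WT Tconv+Treg cells 40 Tfh-side peaks rose (8.62%) and 28 fell (6.03%), with a median of -0.10, and 7 Blimp-1-side peaks rose (2.24%) and 39 fell (12.5%), with a median of -0.39, where 6.48% of all peaks rose and 5.38% fell. In Tconv the counts were 7 up (1.51%) and 6 down (1.29%) for the first list and 0 up and 7 down (2.24%) for the second, where 1.69% of all peaks rose and 1.66% fell, and in naive cells 1 up and 0 down, and 0 and 0. The smallest p on the lists with Treg was at a peak 5.90 kb from the start of Pou2af1, a B cell and Tfh coactivator, with a log2 fold change of 1.81 (95% interval 1.38 to 2.24, adjusted p = 3.21e-05), and at a peak 256 kb from Id2, an inhibitor of E proteins, with a log2 fold change of -2.02 (95% interval -2.65 to -1.39, adjusted p = 0.000147). In Tconv it was at the start of Il21, a Tfh cytokine, with a log2 fold change of 1.34 (95% interval 0.87 to 1.82, adjusted p = 0.00222), and at a peak 19.2 kb from Il2ra, the IL-2 receptor alpha chain, with a log2 fold change of -1.49 (95% interval -2.09 to -0.90, adjusted p = 0.00523). In naive cells the only call on either list was at a peak 51.8 kb from Btla, an inhibitory receptor, with a log2 fold change of 2.32 (95% interval 1.79 to 2.85, adjusted p = 9.17e-05).

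The lists were counted on activation too. In HP1γ WT Tconv over naive cells 142 Tfh-side peaks rose (30.6%) and 157 fell (33.8%), with a median of -0.26, and 122 Blimp-1-side peaks rose (39.1%) and 85 fell (27.2%), with a median of 0.40, where 24.5% of all peaks rose and 22% fell. In HP1α KO over WT Tconv+Treg cells 0 Tfh-side peaks rose and 14 fell (3.02%), and 3 Blimp-1-side peaks rose (0.962%) and 2 fell (0.641%), where 0.218% of all peaks rose and 1.41% fell. With Treg over Tconv in HP1γ KO cells 39 Tfh-side peaks rose (8.41%) and 10 fell (2.16%), and 7 Blimp-1-side peaks rose (2.24%) and 25 fell (8.01%), where 6.1% of all peaks rose and 2.06% fell.

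Motifs were searched on both strands of the central 300 bp of every peak, as a description of letters. The AP-1 motif TGANTCA was in 10 of 39 Prdm1 peaks (25.6%), 4 of 21 Bcl6 peaks (19.0%) and 1 of 16 Cxcr5 peaks (6.25%), and in 13.0% of all peaks. Among peaks that rose in HP1γ WT Tconv it was in 8 of the 27 at Prdm1 (29.6%) and in 22.1% of all risers, and in 9.51% of all peaks that fell. The STAT and BCL6 motif TTCNNNGAA was in 8 Prdm1 peaks (20.5%), 1 Bcl6 peak (4.76%) and no Cxcr5 peak, and in 8.89% of all peaks. The NFAT motif GGAAAA was in 13 Prdm1 peaks (33.3%) and in 22.4% of all peaks, and the PRDM1 motif AAGTGAAAG was in 1 Prdm1 peak, 78 kb downstream, and in 0.989% of all peaks. The TCF/LEF motif TTCAAAG was in 5 Prdm1 peaks (12.8%; all peaks 7.93%), the RUNX motif TGTGGTT in 3 (7.69%; 12.9%), the NF-kB motif GGANTTTCC in 2 (5.13%; 1.70%) and the KLF motif CCACACCC in 2 (5.13%; 3.77%).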

How the data were processed

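The authors deposited raw ATAC-seq counts per consensus peak, with no normalization, for all 36 libraries. In the submitters' processing notes and the study's methods, reads were trimmed with Trim Galore 0.6.7 and aligned to GRCm39 with BWA, peaks were called per sample with HMMRATAC and merged, and overlaps were counted with featureCounts 2.0.3, and a read can count in more than 1 peak. The table held 71512 intervals, and 3 without width were left out. All 36 columns matched a sample, and 0 columns were unused.

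Counts were fitted by group with edgeR 4.0.16 (R 4.3.3, limma 3.58.1, quasi-likelihood test, filterByExpr, TMM) in each mouse line, with 15 HP1α libraries (the study left out 3) and 18 HP1γ libraries. Adjusted p-values are Benjamini-Hochberg over all 71509 or 71508 peaks tested, and intervals are 95%. The biological coefficient of variation was 26.6% and 22.2%. Data were simulated with 1 common spread per line, the real library depths and 200 peaks changed by a log2 of 2. The HP1γ KO over WT Tconv+Treg fit called 95% of them (13 false calls, 71493 peaks) and the HP1α one 16.5% (1 false call, 71495 peaks). DESeq2 1.42.0 was an alternative, and the others were another filter, scaling, GC or depth term, member rule, set of libraries and left-out replicates. The earlier quasi-likelihood method of edgeR was added after seeing the data. Between 2 libraries of a group, at most 3.40% of peaks had the same count, so none was taken as a repeat. Figures were drawn with matplotlib 3.10.9.

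Same-numbered libraries deviated together, with a correlation over 0.1 for every number, in HP1α KO and WT naive cells (0.254 to 0.507), HP1γ KO and WT Tconv+Treg (0.147 to 0.324) and HP1γ WT Tconv+Treg and Tconv (0.200 to 0.286). What the number stands for is not in the labels.

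The members, gene lists, markers and motifs were chosen with earlier results of these data known. Named peaks are each gene's start-site peak, its smallest p in each comparison, the largest rise and fall in HP1γ WT Tconv over naive cells, and the KO over WT calls (the 12 with the smallest p where there were more). The Prdm1 rises between 241.5 and 250.2 kb upstream were grouped after their values were seen. The Prdm1 peak 91.5 kb downstream and the Bcl6 peak 140.9 kb upstream were also named for HP1γ KO over WT Tconv+Treg after their values were seen. Similar genes are the 3 of highest Pearson correlation. Sequences and gene models came from GRCm39 and GENCODE vM39.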

Additional observations from a re-analysis of the deposited data

Results flagged for a closer look

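At the 3 Bcl6 peaks far upstream of the gene, HP1α KO over WT and HP1γ KO over WT Tconv+Treg cells moved in opposite directions. The log2 fold changes were -1.49 and 1.28 at the peak 198.4 kb upstream, -2.23 and 1.58 at the peak 174.7 kb upstream, and -2.59 and 1.51 at the peak 173.2 kb upstream. The difference between the lines was not tested, since the lines were fitted apart. The HP1α values rest on 1 KO library against 2 WT libraries, and with all 18 HP1α libraries they were -1.11, -1.45 and -1.52 with none called. The summed level of the B cell genes Pax5 and Ebf1 moved the same way as these peaks in both lines. It was at 11.5 CPM per kb in HP1α KO against 20.2 to 20.3 in WT libraries. In the HP1γ line it was at 17.0 to 21.6 in KO against 10.9 to 13.7 in WT libraries. The gene that separated the groups was not the same in the 2 lines. In the HP1α line Pax5 differed (4.63 against 11.2 to 15) and Ebf1 did not (6.85, within 5.23 to 8.93). In the HP1γ line Ebf1 was separate (9.67 to 11.8 against 5.95 to 7.33) and Pax5 overlapped (7.29 to 9.76 and 3.59 to 7.52). The part of these genes was not tested.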

How the results depend on the processing

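Each count of called members was recomputed under 12 alternatives and without each replicate in turn. The nearest start site of any gene type leaves 22 members in place of 76, so the counts fell by construction: to 0 for HP1α KO over WT Tconv+Treg (from 4), 1 for HP1γ KO over WT Tconv (from 3), 5 for HP1γ KO over WT Tconv+Treg (from 17), 7, 5, 7 and 9 for Tconv over naive cells in HP1α WT, HP1α KO, HP1γ WT and HP1γ KO (from 44, 41, 43 and 45), and 1 and 4 for Tconv+Treg over Tconv in HP1α WT and HP1γ KO (from 10 and 18). With adjusted p alone the counts were 6 for HP1γ KO over WT Tconv and 26 with Treg. For the other changes the cause was not tested. With the groups compared alone in the fit there were 0 for HP1α KO over WT Tconv+Treg, 2, 1 and 9 for HP1γ KO over WT naive, Tconv and Tconv+Treg, and 3 for HP1γ KO Tconv+Treg over Tconv. The earlier quasi-likelihood method gave 0 for HP1α KO over WT Tconv+Treg, 1 for HP1γ KO over WT naive, 6, 1 and 10 for Tconv+Treg over Tconv in HP1α WT, HP1γ WT and HP1γ KO, and 1 for the HP1γ activation interaction. DESeq2 gave 6 for HP1γ KO over WT naive, 4 for HP1γ WT Tconv+Treg over Tconv and 6 for the HP1γ activation interaction. All 18 HP1α libraries gave 0 for HP1α KO over WT Tconv+Treg and 2 for HP1α KO Tconv+Treg over Tconv, and a depth covariate gave 0 and 1 there and 5 for HP1α WT Tconv+Treg over Tconv. Offsets on GC content gave 1 for HP1α KO Tconv+Treg over Tconv.

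With the replicate number as a block, HP1γ WT Tconv+Treg over Tconv had 1 call in place of 0, HP1α KO Tconv+Treg over Tconv had 2 in place of 0, and HP1γ KO over WT Tconv+Treg had 18 in place of 17; no other count moved by over 1.5 times.

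Without single replicates, counts ranged from 0 to 3 for HP1α KO over WT Tconv+Treg, 1 to 8 and 9 to 21 for HP1γ KO over WT Tconv and Tconv+Treg, 0 to 11, 0 to 2 and 7 to 22 for Tconv+Treg over Tconv in HP1α WT, HP1γ WT and HP1γ KO, and 41 to 44, 38 to 40, 38 to 43 and 35 to 47 for Tconv over naive cells in HP1α WT, HP1α KO, HP1γ WT and HP1γ KO. The 2 calls for HP1γ WT Tconv+Treg over Tconv came without WT Tconv replicate 3. Leaving out the only HP1α KO Tconv+Treg library gives no value. For single named peaks, a call was kept in 606 recomputed values and lost in 64, a missing call stayed so in 1468 and was gained in 21, and none reversed. The floor is 3 counts, and 2 to 4 member peaks were at or under it in every library of each naive group, as were 3 in both HP1α WT Tconv+Treg libraries used.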
